A study of Mus musculus with 3 samples.

Results

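The genes described here are 34 lysosomal genes of the mouse, encoding hydrolases of the lysosomal lumen, proteins of its limiting membrane and subunits of its proton pump. They were chosen by name from a deposited expression table of 56833 genes. Each of the 34 names was found in the table, and all 34 had a mean over the libraries of at least 50 normalized counts, the minimum used below, which 11873 genes of the table passed. Normalized counts are gene read counts divided by a size factor for each library.

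The RNA came from cells of the ankle synovium of Efhd1CreER; Ai9 mice, in which a Cre recombinase driven from the Efhd1 gene switches on the red reporter tdTomato. Cells sorted for tdTomato, called telocytes in the labels, spent 24 h on plates coated with collagen, with a stiffness of 0.2 kPa (called soft below), 8 kPa (intermediate) or 64 kPa (stiff), and the study asked whether matrix stiffness alters their differentiation. Genotype, tissue, sort and coating were shared by all 3 groups, so stiffness is the only labelled difference. The number of mice behind each library is not given in the sources used here. There was 1 library per level, with 25487064 reads at 0.2 kPa, 28081600 at 8 kPa and 26474862 at 64 kPa. No difference below has a replicate check, no p-value is given, and differences between cultures cannot be told apart from differences between stiffness levels.

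Lysosomes are acidic organelles that break down proteins, glycans and lipids delivered by endocytosis, phagocytosis and autophagy. A vacuolar proton pump, the V-ATPase, keeps the lumen acidic, most hydrolases are delivered by receptors for mannose 6-phosphate, and heavily glycosylated proteins such as Lamp1 and Lamp2 line the membrane. In joint tissue, macrophages and osteoclasts are rich in lysosomal proteases, and synovial fibroblasts also make several cathepsins, including the collagen-cleaving cathepsin K. Many lysosomal genes carry near their start site an E-box motif of the kind bound by TFEB, TFE3 and MITF, and this shared element is called the CLEAR motif.

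The promoters are shown first because the genes with and without this E-box are compared further on. RefSeq windows on GRCm38.p6, from 250 bases before to 50 bases after each start site, were matched by symbol for 29 of the 34 genes. The core E-box CACGTG reads the same on both strands. It was present in a window of 13 of the 29 genes (44.8%), against 12.02% of the 9326 matched genes past the minimum mean and 8.09% of all 27025 genes with a window. The longer TCACGTGA, which contains the core, was present in 6 of the 29 (20.7%), against 2.35% and 1.12%. With a further G before and C after it, the motif was in none of the 29, against 0.87% of the 9326 genes and 0.37% of all genes with a window. All shares count both strands. The stretches below lie before the start site and are written 5′ to 3′ on the strand of the gene, with every CACGTG in capitals. They show Lamp1 with the largest number of E-boxes among the 29, Ctsd and Gaa (both higher on the stiff plate), Mcoln1 (close to equal), Gla (lower), and Ctss and Ctsk, which had the highest and the lowest stiff to soft ratio and no E-box in their windows. The window of Ctsd holds 2 E-boxes, and the one at position -245 from the start site lies outside the stretch shown.
Lamp1 (chr8:13159086-13159155, plus strand): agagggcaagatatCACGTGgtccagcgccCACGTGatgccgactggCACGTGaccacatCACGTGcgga
Ctsd (chr7:142387888-142387947, minus strand): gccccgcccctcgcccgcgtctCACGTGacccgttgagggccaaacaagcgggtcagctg
Gaa (chr11:119267803-119267862, plus strand): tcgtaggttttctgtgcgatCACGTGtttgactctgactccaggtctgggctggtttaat
Mcoln1 (chr8:3500429-3500498, plus strand): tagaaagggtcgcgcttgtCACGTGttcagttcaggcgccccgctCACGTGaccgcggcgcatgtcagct
Gla (chrX:134601176-134601245, minus strand): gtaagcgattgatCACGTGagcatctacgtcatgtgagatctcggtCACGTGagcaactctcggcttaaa
Ctss (chr3:95526706-95526785, plus strand): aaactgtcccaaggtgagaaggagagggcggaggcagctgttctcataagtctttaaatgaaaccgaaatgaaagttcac
Ctsk (chr3:95499130-95499209, plus strand): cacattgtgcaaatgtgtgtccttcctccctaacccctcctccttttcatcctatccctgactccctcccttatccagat

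Summed, the 34 lysosomal genes took more of the reads on stiffer plates, and the gain lay in classes other than the membrane proteins and the proton pump. Together they held 1.13% of all reads at 0.2 kPa (exact 95% Clopper-Pearson interval 1.125% to 1.133%), 1.19% at 8 kPa (1.189% to 1.197%) and 1.27% at 64 kPa (1.266% to 1.274%). These intervals, and those of the ratios below, cover counting error only. A few genes weigh heavily in the sum. The 6 most counted genes of each library held 56.9%, 56.5% and 56.3% of these reads at 0.2, 8 and 64 kPa. From soft to stiff, Psap went from 30573 to 47242 reads and Ctsb from 32380 to 44995, while Cd63 went from 28005 to 23976. Of the 34 genes, 10 were lower in the stiff than in the soft library. Cysteine cathepsins with legumain went from 0.337% to 0.368% and 0.409% of reads over the soft, intermediate and stiff libraries. The lipid handling proteins and activators went from 0.283% to 0.313% and 0.34%. The 5 membrane proteins ran the other way, from 0.28% to 0.272% and 0.251%.

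**Figure D1:**
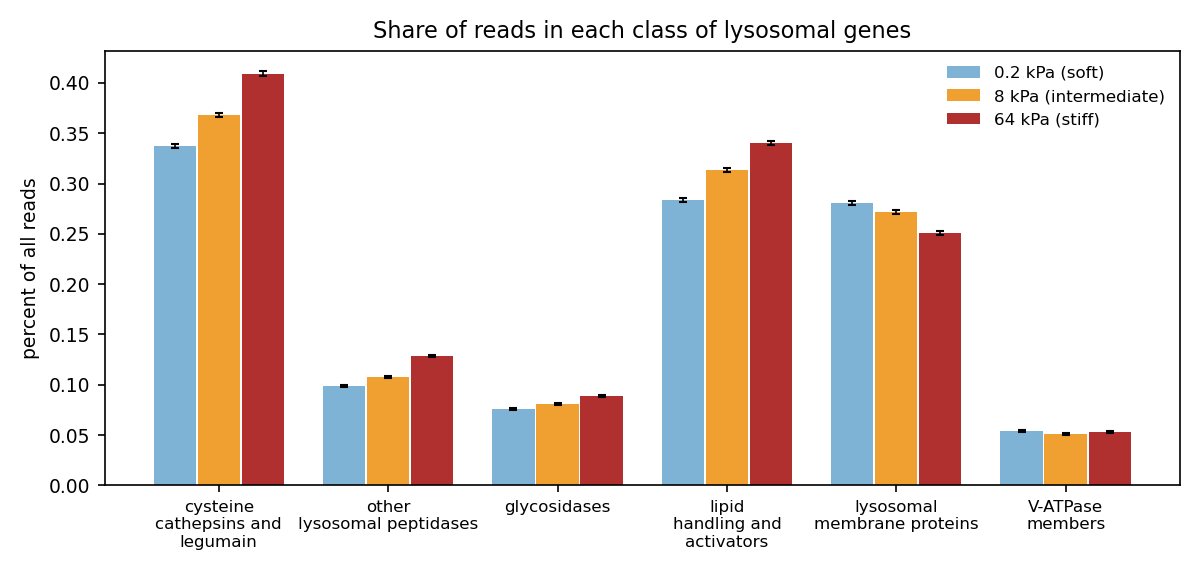
Bars give the percent of all reads in each class of lysosomal genes, with a bar for each library, and error bars are exact 95% Clopper-Pearson intervals that cover counting error only. Cathepsins go from 0.337% in the soft to 0.409% in the stiff library, while membrane proteins go from 0.28% to 0.251%.

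Most single genes differed little between the stiff and soft libraries. Ratios are given on a log2 scale after adding 1 to both normalized counts. The median stiff to soft ratio of the 34 genes was 0.13, from -0.47 for Ctsk to 1.08 for Ctss, against a median of 0.0049 over all 11873 genes. With scaling by total reads without mitochondrial and ribosomal protein genes, these medians were 0.058 and -0.07. Ratios were above 0 for 24 of the 34, where 51.1% of all genes were above 0, and below 0 for 10, where 48.9% were. A log2 ratio of at least 1 was reached upward by 1 gene, Ctss (2.94% of the 34, against 3.22% of all genes), and downward by none (0.387% of all genes). At a log2 ratio of at least 0.5, 7 of the 34 were higher in the stiff library (20.6%), against 11.8% of all genes, and none was lower, against 3.77%. Those 7 were Ctss, Atp6v0d2, Gaa, Ctsc, Psap, Ctsd and Man2b1. With libraries scaled by total reads the split was 6 higher and 1 lower, since Man2b1 then missed the threshold and Ctsk reached it.

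The median difference was smaller in the first step of stiffness than in the second. Between intermediate and soft the median of the 34 was 0.07, against 0.012 over all genes (0.03 against -0.02 with upper quartile scaling), and 1 gene, Atp6v0d2, reached 0.5 upward (3.94% of all genes did) and none downward (0.657%). Ratios were above 0 for 24 of the 34 (53.5% of all genes) and below 0 for 10 (46.5%). Between stiff and intermediate the median was 0.11, against 0.0061 over all genes (0.07 against -0.04 with scaling by total reads without mitochondrial and ribosomal protein genes), and again 1 gene reached 0.5 upward, Ctss (5.42% of all genes), and none downward (3.42%). Ratios were above 0 for 23 of the 34 (51.1% of all genes) and below 0 for 11 (48.9%). A log2 ratio of 1 was reached by none of the 34 in either step, where 0.16% and 0.825% of all genes reached it upward and 0.00842% and 0.421% downward. Levels stood in the order soft, intermediate, stiff from low to high in 20 of the 34, against 30.2% of all genes, and in the opposite order in 7, against 25.6%. Both steps reached 0.25 upward in 3 genes, Ctss, Gaa and Psap (8.82% of the 34, against 5.73% of all genes), and downward in none (0.707%). With a trend of the ratios in transcript length and GC content subtracted, Gaa missed 0.25 in the first step, at 0.15, which left 2 genes.

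**Figure D2:**
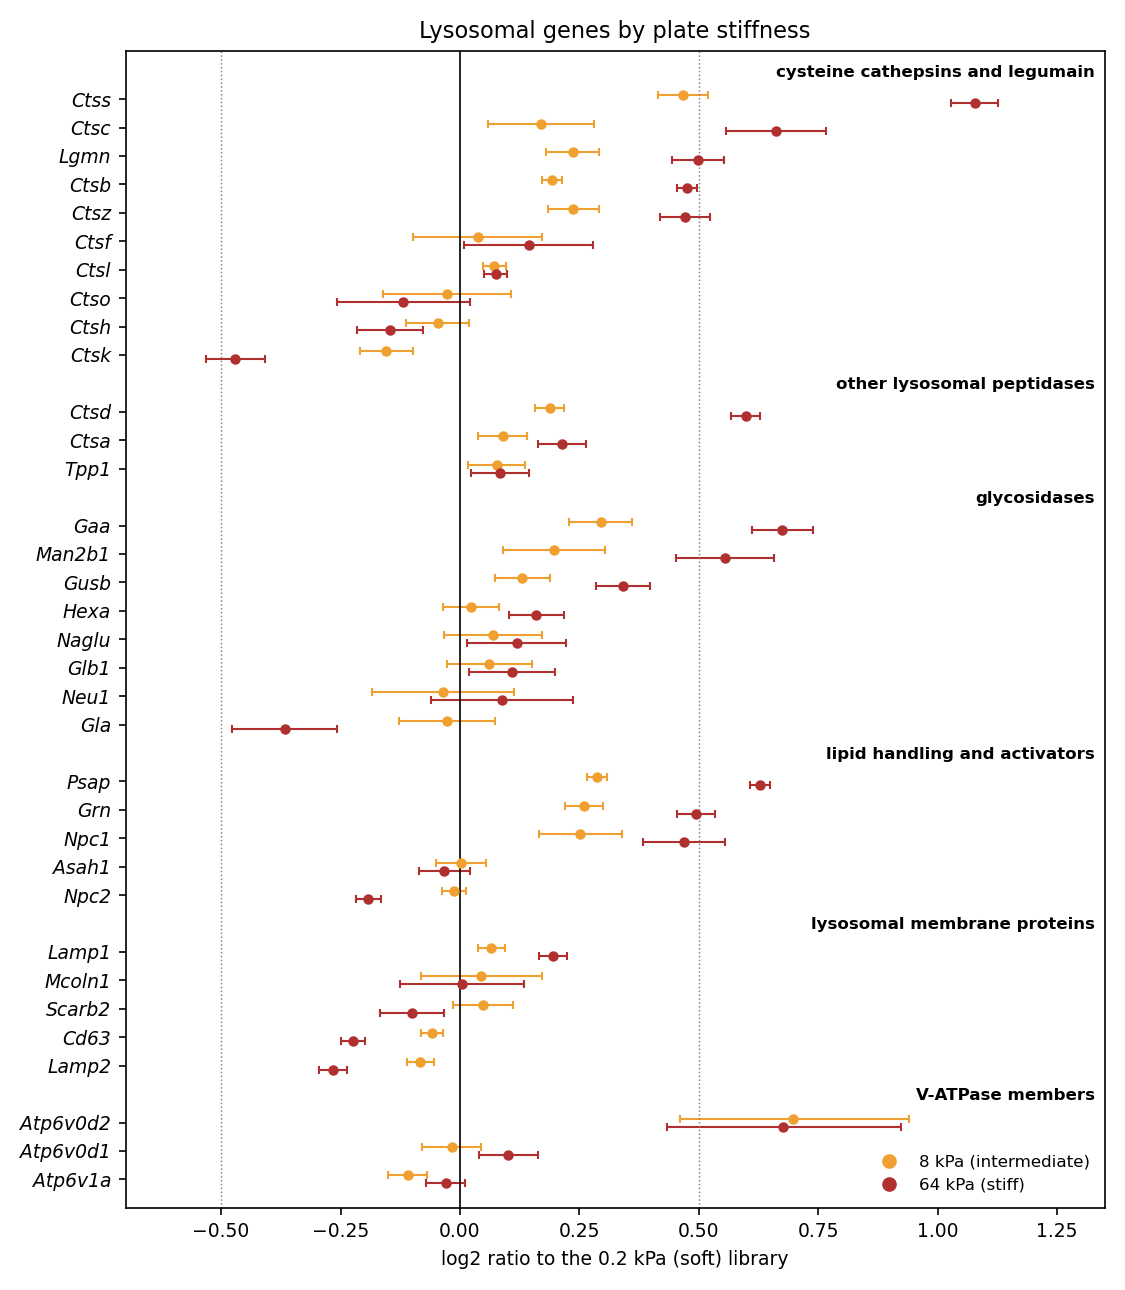
Points give the log2 ratio of the 8 kPa (orange) and 64 kPa (red) library to the 0.2 kPa library for each of the 34 genes, grouped by role, with 95% counting intervals and dotted lines at 0.5 in either direction. Ctss lies farthest to the right at 1.08, Ctsk farthest to the left at -0.47, and Atp6v0d2 stands at almost the same ratio, 0.70 and 0.68, in both stiffer libraries.

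Among the cysteine proteases, Ctss, encoding the cathepsin S that trims the invariant chain in antigen-presenting cells, had 5035 normalized counts at 0.2 kPa, 6960 at 8 kPa and 10627 at 64 kPa. Its level was highest on the stiff plate, 2.11-fold that on the soft plate, with a log2 ratio of 1.08 and a counting interval from 1.03 to 1.13. The gene lies on chromosome 3, as does Ctsk. Ctsc, whose product cathepsin C activates the serine proteases of granules, stood at 1237, 1392 and 1958 normalized counts at 0.2, 8 and 64 kPa. Its stiff to soft log2 ratio was 0.66 (interval 0.56 to 0.77), with 25.7% of that log2 difference present at the intermediate level.

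Ctsb, encoding cathepsin B, had 33196 normalized counts at 0.2 kPa, 37930 at 8 kPa and 46142 at 64 kPa, a stiff to soft log2 ratio of 0.48 (0.45 to 0.50). Ctsz, encoding the carboxypeptidase cathepsin Z, had 5241, 6179 and 7262, a ratio of 0.47 (0.42 to 0.52). Lgmn, encoding the asparaginyl endopeptidase legumain that processes other cathepsins, had 4688, 5521 and 6623, a ratio of 0.50 (0.44 to 0.55). These 3 proteases were thus 1.39-fold to 1.41-fold higher on the stiff than on the soft plate, each with the intermediate library in between and short of the 0.5 threshold.

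Cathepsin K, encoded by Ctsk and best known for dissolving bone collagen in osteoclasts, ran the other way. Its normalized counts were 5277 at 0.2 kPa, 4743 at 8 kPa and 3809 at 64 kPa, the lowest stiff to soft log2 ratio of the 34 at -0.47 (-0.53 to -0.41). Ctsh, encoding the aminopeptidase cathepsin H, was also lower in the stiff library, with 3659, 3542 and 3307 normalized counts and a ratio of -0.15 (-0.21 to -0.08). With the trend in transcript length and GC content subtracted, the ratio of Ctsh was -0.04. The other cysteine cathepsins were nearly level. Ctsl, encoding cathepsin L, had 27999, 29439 and 29499 normalized counts, a ratio of 0.08 (0.05 to 0.10). Ctsf had a ratio of 0.14 (0.01 to 0.28) and Ctso of -0.12, with an interval from -0.26 to 0.02 that includes 0. In all, 2 of the 10 genes of this class reached 0.5 upward (11.8% of all genes) and none downward (3.77%), 7 were above 0 (51.1%), and their median stiff to soft ratio was 0.31.

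The other peptidases were led by Ctsd, encoding the aspartic protease cathepsin D. It had 15339 normalized counts at 0.2 kPa, 17468 at 8 kPa and 23218 at 64 kPa, a log2 ratio of 0.60 (0.57 to 0.63), or 1.51-fold. Ctsa, encoding the carboxypeptidase that also protects the neuraminidase and beta-galactosidase, stood at 6087, 6474 and 7054, a ratio of 0.21 (0.16 to 0.26). Tpp1, encoding tripeptidyl peptidase, was close to level at 4346, 4583 and 4608, a ratio of 0.08 (0.02 to 0.15). Ctsd and Ctsa were highest in the stiff library, with Ctsd past 0.5, and the stiff to intermediate ratio of Tpp1, 0.01 (-0.05 to 0.07), changed sign with the scaling.

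Among the 8 glycosidases, 2 reached 0.5 upward (11.8% of all genes did) and none downward (3.77%). Gaa, encoding the acid alpha-glucosidase that degrades glycogen, had 3386 normalized counts at 0.2 kPa, 4154 at 8 kPa and 5406 at 64 kPa, a log2 ratio of 0.67 (0.61 to 0.74). Man2b1, encoding the lysosomal alpha-mannosidase, had 1329, 1523 and 1953, a ratio of 0.56 (0.45 to 0.66). In both the larger part of the difference lay between the intermediate and stiff libraries. With a trend of the ratios in transcript length and GC content subtracted, both missed 0.5, Gaa at 0.40 and Man2b1 at 0.46. Their canonical transcripts are 59.5% and 53.4% GC.

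Gla, encoding the alpha-galactosidase lacking in Fabry disease, was the one glycosidase lower on the stiff plate. It had 1588 normalized counts at 0.2 kPa, 1558 at 8 kPa and 1232 at 64 kPa, a stiff to soft ratio of -0.37 (-0.48 to -0.26). Only 7.4% of that log2 difference was present at the intermediate level. Gusb, encoding beta-glucuronidase, had a ratio of 0.34 (0.28 to 0.40), with 4557, 4989 and 5772 normalized counts. The remaining 4 glycosidases, Hexa, Naglu, Glb1 and Neu1, lay between 0.09 and 0.16, and the interval of Neu1, from -0.06 to 0.24, includes 0.

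Proteins that handle lipids split into a higher and a level or lower set. Psap, the precursor of the saposins that present sphingolipids to their hydrolases, had 31343 normalized counts at 0.2 kPa, 38243 at 8 kPa and 48447 at 64 kPa, a log2 ratio of 0.63 (0.61 to 0.65). Grn, encoding the progranulin that is cut into granulins in the lysosome, had 9237, 11060 and 13011, a ratio of 0.49 (0.46 to 0.53). Npc1, the membrane protein that exports cholesterol, had 1970, 2346 and 2728, a ratio of 0.47 (0.38 to 0.55). These were highest in the stiff library and intermediate at 8 kPa.

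Npc2, the soluble protein that hands cholesterol to Npc1, had 25556 normalized counts at 0.2 kPa, 25343 at 8 kPa and 22373 at 64 kPa, a ratio of -0.19 (-0.22 to -0.17). The partners Npc1 and Npc2 thus had stiff to soft ratios of opposite sign. Asah1, encoding acid ceramidase, was level at 5924, 5932 and 5791, and its ratio of -0.03 had an interval from -0.09 to 0.02. With the length and GC trend described above subtracted, the ratio of Asah1 was 0.08.

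The 5 membrane proteins were the class with a median below 0, at -0.10 between stiff and soft. Lamp2, encoding a major membrane glycoprotein with a role in chaperone-mediated autophagy, had 21118 normalized counts at 0.2 kPa, 19943 at 8 kPa and 17573 at 64 kPa, a ratio of -0.27 (-0.29 to -0.24). Its relative Lamp1 had 18551, 19415 and 21239, a ratio of 0.20 (0.17 to 0.22). These relatives thus had ratios of opposite sign.

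Cd63, a tetraspanin of late endosomes and exosomes, had 28710 normalized counts at 0.2 kPa, 27566 at 8 kPa and 24587 at 64 kPa, a ratio of -0.22 (-0.25 to -0.20). Scarb2, the receptor that carries glucocerebrosidase to the lysosome, had 3897, 4028 and 3635, a ratio of -0.10 (-0.17 to -0.03). Mcoln1, the calcium channel TRPML1, was level at 994, 1026 and 997, and its interval of -0.13 to 0.13 includes 0. Lamp2 and Cd63 were lower at each higher stiffness, with all intervals of the stiff to soft ratio below 0.

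The proton pump subunits gave a contrast between isoforms. Atp6v0d2, the d subunit isoform of osteoclasts and macrophages, had 233 normalized counts at 0.2 kPa, 378 at 8 kPa and 372 at 64 kPa. Both stiffer libraries were above the soft one, by log2 ratios of 0.70 (0.46 to 0.94) and 0.68 (0.43 to 0.92), and the step from intermediate to stiff, at -0.02 (-0.23 to 0.19), was not detectable at this depth. Atp6v0d1, the isoform found in most cells, had 4185, 4135 and 4489, a stiff to soft ratio of 0.10 (0.04 to 0.16). Atp6v1a, the catalytic subunit, had 9725, 9017 and 9524, with the lowest level at 8 kPa. Atp6v0d2 was the only one of the 34 that reached 0.5 in the first step and did not go further in the second.

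Levels of different genes are compared as RPKM, read counts scaled to library total and transcript length, with the length of the GENCODE vM39 canonical transcript. On this scale Cd63 was highest on the soft plate at 795, with 753 on the intermediate and 655 on the stiff plate. Psap had 452, 545 and 673. The lowest were Atp6v0d2, at 3.49, 5.60 and 5.37, and Ctso, at 5.18, 5.02 and 4.59. Ctss had 141, 192 and 287. The order of genes depends on the transcript length used. By the union of all annotated exons Psap stood above Cd63 in all 3 libraries, at 376 against 230 on the soft plate. Lamp2 was above Lamp1 by canonical length, at 455 against 276 on the soft plate, and below it by exon union, at 63.7 against 136. Ctss on the stiff plate was above Npc2 by canonical length, at 287 against 206, and below it by exon union, at 73.8 against 134.

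**Figure D3:**
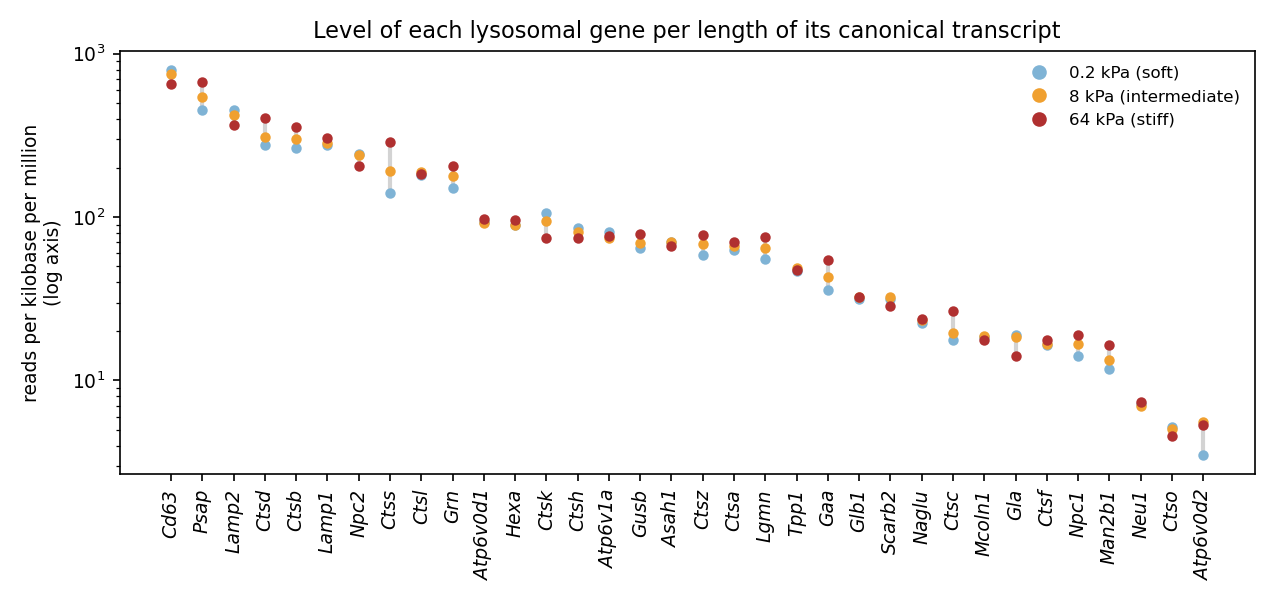
Each column is a gene, ordered by mean level, and points give RPKM by canonical transcript length on a log axis in the soft (blue), intermediate (orange) and stiff (red) library. The spread between genes, from 3.49 for Atp6v0d2 to 795 for Cd63 on the soft plate, is much wider than the spread between libraries of any gene.

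The ratios of genes with and without the E-box overlapped. The 13 genes with CACGTG had a median stiff to soft ratio of 0.12, from -0.37 (Gla) to 0.67 (Gaa), and 2 of them reached 0.5. The 16 matched genes without it also had a median of 0.12, from -0.47 (Ctsk) to 1.08 (Ctss), and 4 of them reached 0.5. Of all genes 11.8% did. The 6 genes with TCACGTGA had a median of 0.05. Lamp1, with 4 E-boxes in its window, had a ratio of 0.20. A match is a description of letters in the window, and nothing about binding was measured.

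**Figure D4:**
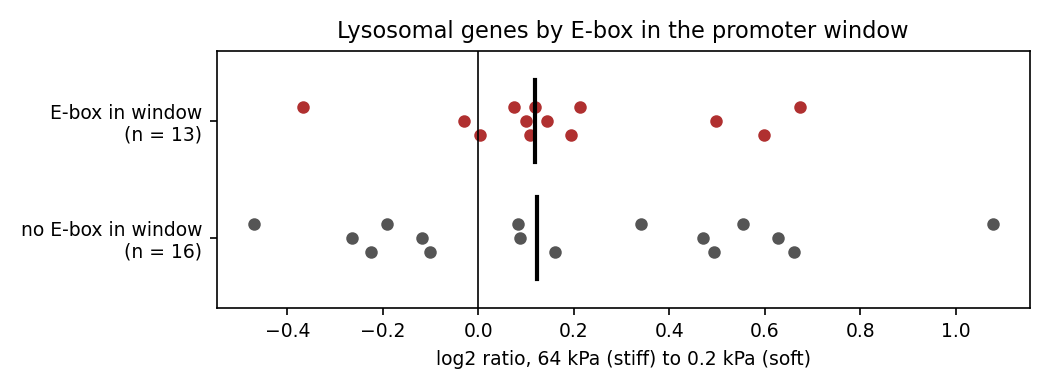
Points are the log2 stiff to soft ratios of the 29 genes with a promoter window, split by the presence of the E-box, and black bars are medians. Both medians are 0.12 and the ranges overlap widely.

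Transcripts of the factors that bind this motif did not share a direction. Tfe3 had 1596 normalized counts at 0.2 kPa, 1939 at 8 kPa and 2213 at 64 kPa, a ratio of 0.47 (0.38 to 0.57). Mitf, which has a known role in osteoclasts and melanocytes, had 1447, 1686 and 1037, highest at 8 kPa and lowest at 64 kPa, with a stiff to soft ratio of -0.48 (-0.60 to -0.36). Tfeb had 244, 223 and 292, a ratio of 0.26 (0.01 to 0.51). Tfec, a family member of macrophages, had 137, 172 and 255, a ratio of 0.89 (0.59 to 1.21). RNA level says nothing of their entry into the nucleus.

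Other lysosomal genes were read from lists written with earlier results of these data known. Their counts stand against the same shares of all genes as above, 11.8% higher and 3.77% lower by 0.5 between stiff and soft, 51.1% above 0 and 48.9% below 0. Of 22 further hydrolases and activators past the minimum mean, none reached 0.5 in either direction, 14 were above 0, and the median stiff to soft ratio was 0.10. Gm2a and Idua each had a ratio of 0.43, and the lowest ratios were -0.33 for Galc and Aga. Of 15 further V-ATPase subunits, 1 reached 0.5 upward, Atp6v0a1 at 0.53, none downward, and the median was -0.04. The lowest was Atp6v1g1 at -0.45. Tcirg1, the a3 subunit of osteoclasts, had 1235, 1585 and 1565 normalized counts, so that both stiffer libraries lay above the soft one, as for Atp6v0d2.

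Further lysosomal membrane proteins had a median of -0.02 over 16 genes, with 2 past 0.5 upward and 1 downward. The 2 upward were Laptm5, a protein of blood cells, at 1.58 (1.50 to 1.67) with 1648, 2451 and 4944 normalized counts, and the channel Mcoln2 at 0.91 (0.61 to 1.22). Downward it was the sialic acid exporter Slc17a5 at -0.56 (-0.70 to -0.42). The next lowest was Tmem106b at -0.42. Genes for delivery of hydrolases had a median of 0.34 over 9 genes, and 2 reached 0.5 upward, the adaptor Gga3 at 0.76 and the sortilin gene Sort1 at 0.67, while Gga2 and Gnptg were lowest at -0.09 and -0.07.

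The platform on which mTORC1 is activated at the lysosome had a median of -0.17 over 11 genes, and 9 of these were below 0, against 48.9% of all genes. Rragd reached 0.5 downward, at -0.76 (-1.34 to -0.21) and 76.9, 65.0 and 45.1 normalized counts, and Fnip1 followed at -0.27. Autophagy genes had a median of -0.04 over 19 genes, with 1 past 0.5, Plekhm1 at 0.51. Sqstm1, the cargo receptor p62, had 14380, 14560 and 18680 normalized counts, a ratio of 0.38 (0.35 to 0.41). Cst3, the secreted cathepsin inhibitor cystatin C, had 14724, 13865 and 13012, a ratio of -0.18 (-0.21 to -0.14), so it was lower where most cathepsins were higher.

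**Figure D5:**
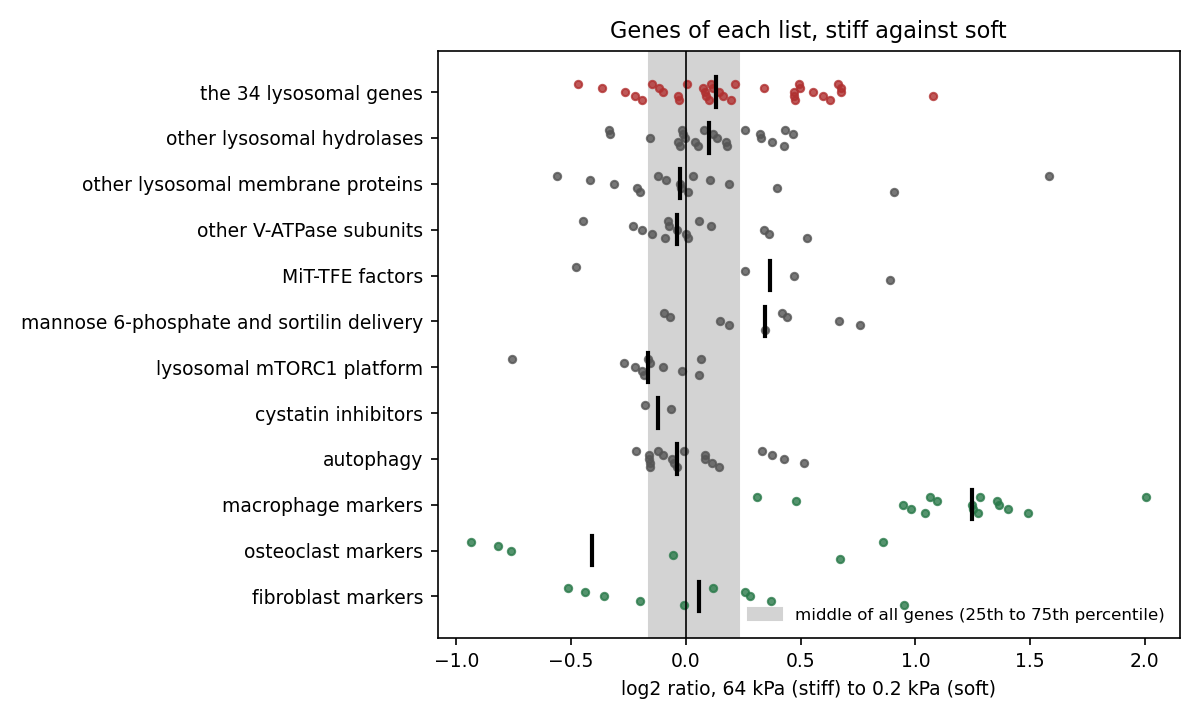
Points are the log2 stiff to soft ratios of the genes of each list past the minimum mean, black bars are medians, and the grey band spans the 25th to 75th percentile of all 11873 genes. The median is 0.13 for the 34 lysosomal genes, 1.25 for macrophage markers and -0.17 for the mTORC1 platform.

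Markers of other cell types were read beside these results, although the cells had been sorted for tdTomato. In a bulk sample, a different number of cells of a type and a different amount of RNA per cell cannot be told apart. All 16 macrophage markers past the minimum mean were higher in the stiff than in the soft library, against 51.1% of all genes. Their median ratio was 1.25, with a range of 0.31 to 2.00, and 12 of them reached 1, against 3.22% of all genes. The summed level of the 20 macrophage markers was 31588 normalized counts at 0.2 kPa, 39298.5 at 8 kPa and 68388 at 64 kPa, and Cx3cr1 had no read in any library. Csf1r, the receptor on which macrophages depend, had 1267, 1725 and 3359 normalized counts, and Adgre1, encoding F4/80, had 2395, 3404 and 5785. The ratio of Ctss, 1.08, lay within the range of the macrophage markers, with 10 of the 16 above it. The ratios of Ctsc, Ctsd, Gaa, Man2b1, Psap and Atp6v0d2 each lay above those of 2 macrophage markers, Cd14 and Fcgr1, and below the other 14. These genes were picked for passing the lower stiff to soft threshold used above, which Cd14 and Fcgr1 missed. Their place above both markers was thus fixed by that choice. Lgmn and Grn had the same place, while Ctsb, Ctsz, Gusb and Npc1 lay above 1 marker. The rest of the 34 genes, among them Ctsl, Lamp1 and Ctsk, lay below all 16. The part of macrophages in the ratios of the 34 genes was not tested.

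Osteoclast markers did not move together. Of 6 past the minimum mean, Acp5 and Tnfrsf11a were higher in the stiff library, at 0.67 and 0.86, and Mmp9, Itgb3 and Dcstamp were lower, at -0.93, -0.82 and -0.76. The other, Nfatc1, a transcription factor of osteoclast formation, had 1388, 1985 and 1335 normalized counts, highest at 8 kPa with an intermediate to soft ratio of 0.52. Their summed level was 6967, 7827 and 4844 normalized counts at 0.2, 8 and 64 kPa. Calcr, the calcitonin receptor of mature osteoclasts, had a single read, in the intermediate library, and Oscar and Ocstamp were below the minimum mean. Their part in the lower Ctsk was not tested. Fibroblast markers were present throughout, with a summed level of 250958, 296993 and 351509 and with a median stiff to soft ratio of 0.06. Of these 10 markers 5 were above and 5 below 0, with Col1a1 and Thy1 highest at 0.95 and 0.37 and Fap and Dcn lowest at -0.52 and -0.44. The 3 telocyte markers past the minimum mean had a median ratio of -0.20. Foxl1 had 238, 233 and 186 normalized counts, a ratio of -0.36 (-0.65 to -0.07). Pdgfra had 5884, 6298 and 5118 normalized counts and Cd34 had 235, 242 and 318, whereas Efhd1, the gene that drives the Cre, had 10.3, 4.71 and 3.08. No lymphocyte, mast cell or endothelial marker passed the minimum mean. Of the neutrophil markers 1 passed, at a ratio of -0.09. Of the mural markers 3 passed, with a median of -0.05, namely Cspg4 at 0.53 (0.44 to 0.63), Notch3 at -0.05 and Rgs5 at -0.08. All 6 myofibroblast markers past the minimum mean reached 1 upward, against 3.22% of all genes, with a median of 2.14.

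Reads of neighbouring or copied genes could touch some of these values. On GRCm39, 13 of the 34 genes have at least 10% of their canonical exons covered by exons of another gene on the opposite strand, among them Ctsb, Ctsz, Grn, Lamp1, Ctsa, Gusb and Npc1. The libraries were made with a stranded kit, but whether counting used strand is not given in the sources used here, so these levels are uncertain to that extent. A Cd63 pseudogene, Cd63-ps, is 98.9% identical to the Cd63 transcript over 717 nt and had 0.229% of the normalized counts of Cd63. Ctsd shares 38.0% of its exons with the gene model Gm49369, for which no read was counted. Whether reads over the shared exons were counted for Ctsd was not checked, so its level is uncertain to that extent.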

How the data were processed

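RNA was measured in 3 libraries made with the Illumina TruSeq Stranded mRNA kit, per the labels' protocols, 1 for each stiffness. The deposited signal values are gene counts that the authors divided by a DESeq2 size factor, as the deposited file names say. The submitters' processing notes name bcl2fastq 2.20.0, STAR 2.7.9a, featureCounts of Subread 2.0.1, DESeq2 1.34.0 and GRCm39, without roles. The annotation used for counting is not given in the sources used here. The 3 deposited files were identical, with columns named by the sample titles. Dividing each column by its smallest positive value gave whole reads for 100% of values, within 0.001 reads, and 1 read was worth 1.03, 0.943 and 1.03 normalized counts at 0.2, 8 and 64 kPa.

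Log2 ratios used a pseudocount of 1, which understates changes of low genes, and genes needed a mean of 50. Calls were a log2 ratio of at least 1 or 0.5, or 0.25 in both steps. Intervals are exact 95% Clopper-Pearson intervals of the reads of 2 libraries, without a pseudocount. A count-based test needs replicates and was not made. The 34 genes, all lists and thresholds were chosen with earlier results of these data known. Any of the 34 may be named. Of each other list the text may name the 2 highest and 2 lowest stiff to soft ratios, macrophage and osteoclast markers, and Efhd1, Tfeb, Tfe3, Mitf, Cst3 and Sqstm1. Not all genes that this rule covers are reported here. Idua, Tcirg1, and the gene models that overlap or copy others, were added after their values were seen. Software was edgeR 4.0.16 (for TMM factors only), scipy 1.17.1, pandas 2.3.3 and numpy 2.4.6 under Python 3.11.15. The scripts were tested on simulated data. Alternatives were other pseudocounts, minimum means and scalings, and subtraction of a local linear trend in transcript length and GC content over 300 neighbouring genes, available for all 34 genes.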

Additional observations from a re-analysis of the deposited data

How the results depend on the processing

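No paired analysis was possible because each stiffness level had 1 library. For the same reason neither a count-based test nor omission of single replicates was run. Scaling shifts every ratio alike. With libraries scaled by total reads, by upper quartile, or by total reads without mitochondrial and ribosomal protein genes, 6 genes were higher and 1 lower by 0.5 between stiff and soft, against 9.93% to 10.4% and 5.04% to 5.61% of all genes. The last of these scalings put the median stiff to soft ratio of the 34 genes at 0.058, against a median over all genes of -0.07, and the share of reads in the 34 genes at 1.23%, 1.29% and 1.37% in the soft, intermediate and stiff library, by its smaller denominator. With the length and GC trend subtracted, 2 genes reached 0.5 between intermediate and soft (Atp6v0d2 and Ctss) and 2 between stiff and intermediate (Ctsc and Ctss), against 2.11% and 4.63% of all genes. The cause was not tested. Between stiff and soft 6 reached it, with Lgmn in and Gaa and Man2b1 out, against 7.69% of all genes. Under the alternatives run, the other counts past 0.5 or 1 stayed within 1.5 times those reported, and the medians of the 34 genes were positive under each, from 0.058 to 0.13 between stiff and soft, 0.03 to 0.07 between intermediate and soft, and 0.07 to 0.11 between stiff and intermediate. Of 340 stiff to soft values of single genes under the alternatives, 73 left their counting interval, and none of the 7 genes past 0.5 changed sign. The stiff to soft ratio of 4 genes changed sign under at least 1 setting: Asah1, Atp6v1a, Ctso and Mcoln1, all within 0.12 of 0 as deposited. So did 3 genes between intermediate and soft (Asah1, Ctso and Hexa) and 6 between stiff and intermediate (Asah1, Atp6v0d2, Ctsl, Ctso, Naglu and Tpp1), so the counts above 0 and the order of levels depend on the scaling or the trend for these. Depth leaves the counting interval across 0 for 5 of the 34 genes over the whole range of stiffness, 13 in the first step and 10 in the second.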
